A study of Mus musculus with 3 samples.

Results

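CDC-EpiC, an epithelial clone grown from mouse cardiosphere-derived cells (CDC), was compared with the CDC cultures it came from, across all genes. The comparison rests on 6 of the 9 libraries of the series, 3 of CDC and 3 of the clone, chosen by their labels, and on 12976 of the 18245 genes in the deposited table, those with enough counts to be tested. CDC are cultured heart cells obtained through explants and a sphere stage, and these came from the ventricle epicardium of 6-week-old C57BL/6 mice. CDC-EpiC was picked inside a cloning cylinder after CDC cultures had spent 2 weeks in 10 µM SB-431542, and mesenchymal cells were removed from it by their different time in trypsin. The CDC libraries are labelled as the parental cells of the same strain and tissue. The clone libraries are of 1 clone, and the series holds neither an untreated clone nor a second one. The inhibitor, the cloning, the selection and any difference in time in culture therefore cannot be told apart. The labels give 3 separate RNA samples of each kind without saying whether they were separate animals or cultures, so that the p-values measure the spread between these samples, which may be technical.

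The epicardium is a mesothelium, a single sheet of flat cells joined by junctions, with an apical surface that carries microvilli and a basal surface on a basement membrane. Under TGF-beta such cells can lose their junctions and become mesenchymal, with actin stress fibres and a collagen-rich matrix, a change called epithelial-mesenchymal transition. SB-431542 inhibits ALK-family kinases that relay TGF-beta, activin and nodal, and spares the BMP receptors.

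Total expected counts, the estimated reads assigned to genes, were 22008833 to 22756045 per library. Levels are given as CPM, counts per 1000000 counts after TMM scaling. Replicate libraries varied beyond read sampling (chi-square divided by degrees of freedom, 6.72 to 23.0 over pairs). CDC libraries 1 and 2 held low counts of some blood, liver and heart muscle transcripts that CDC library 3 lacked or nearly lacked. Summed over 10 heart muscle genes, the level was 9.117 to 29.56 CPM in CDC and 9.855 to 12.65 CPM in the clone. The counts of Hba-a1, an alpha globin, were 523, 894 and 0 in CDC libraries 1, 2 and 3 and 0 in each clone library, and the summed level of the 5 blood genes was 0.180 to 59.9 CPM in CDC and 0.0875 to 0.224 CPM in the clone. The clone was therefore also compared with CDC library 3 alone, an alternative chosen after seeing the data.

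The clone differed from CDC in the larger part of its measured genes. Of the 12976 genes tested, 8928 (68.8%) were called at a threshold of 0.05 on the adjusted p (quasi-likelihood test of edgeR, adjusted by Benjamini and Hochberg), 4437 (34.2%) higher and 4491 (34.6%) lower in CDC-EpiC. The libraries of the kinds did not overlap for 71.9% of the genes. At least a 4-fold change was measured for 455 genes that rose and 604 that fell. With CDC library 3 alone, where all of the spread comes from the clone libraries and the lone CDC library is assumed to vary like them, 7928 genes passed, 7389 of those called above in the same direction and 2 in the opposite one. Because most genes passed, each gene list is read against these shares. The lists comprise 1282 different genes tested. Fewer cells of a type and less RNA per cell cannot be told apart in these bulk libraries.

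**Figure D1:**
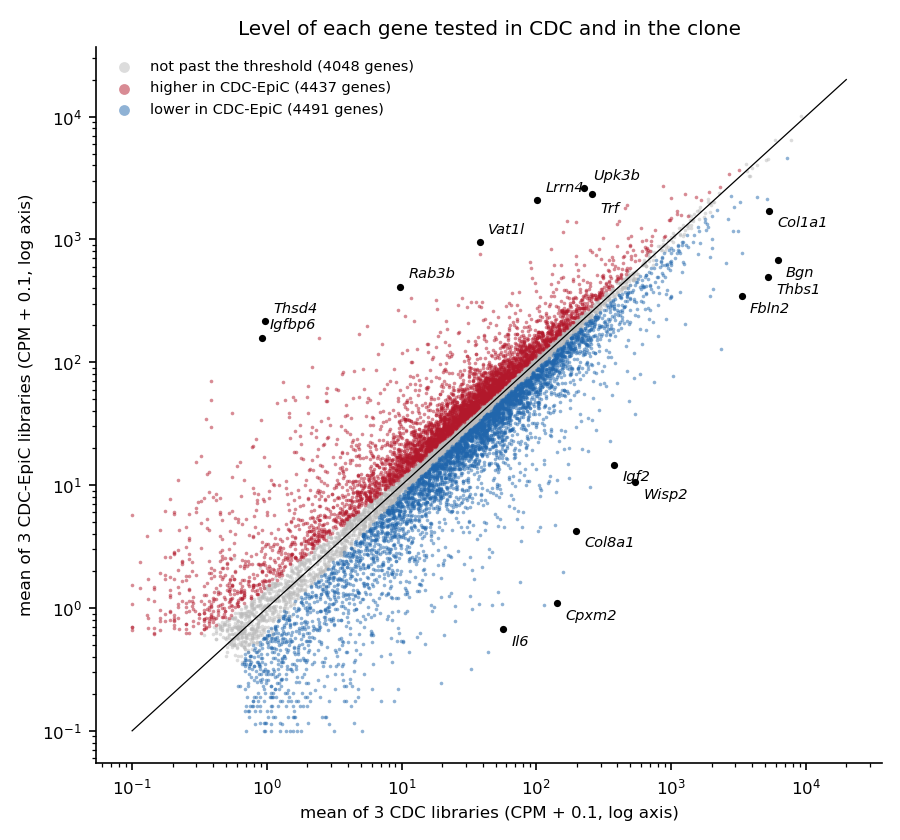
Mean level in the 3 CDC-EpiC libraries against mean level in the 3 CDC libraries for each of the 12976 genes tested, both in CPM plus 0.1 on log axes, with the line of equal levels. Red and blue points are the 4437 higher and 4491 lower genes, and black points are named genes, with Thsd4, Igfbp6 and Rab3b far above the line and Cpxm2, Il6 and Wisp2 far below it.

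The label was set against 20 mesothelial and epicardial markers. They were chosen with earlier results of these data known, so this is not an independent check. Of the 16 tested, 13 rose and 2 fell, with a median log2 change of 2.81 against 0.0026 over all genes tested, and together the 20 genes took 0.765% ± 0.0386 of all counts in the clone and 0.0855% ± 0.00365 in CDC (SD, n = 3). Upk3b, a uroplakin of the mesothelial surface, had 218, 234 and 231 CPM in CDC and 2432, 2836 and 2607 CPM in the clone (log2 change 3.53 ± 0.10 SE; edgeR adjusted p 1.6e-13). Its partner Upk1b rose from 157 ± 5.19 to 1148 ± 86.7 CPM. Every clone library lay far above every CDC library for both, and 71.9% of all genes tested also lacked overlap between the kinds. Msln, mesothelin, rose by a log2 change of 1.15. Tbx18 and Krt19 fell, the latter by 0.48 with the call lost on TPM and on FPKM, and Aldh1a2, a retinoic acid synthase, did not pass. The simple epithelial keratins Krt8 and Krt18 had 1 to 9 counts in any of the 6 libraries, at or near the floor, and Krt7 was low, at 7.92 to 9.42 CPM in the clone. The markers of other cell types were low. Summed over 10 genes, macrophage markers were at 72.1 to 74.1 CPM in CDC and 29.7 to 32.6 CPM in the clone, with Ptprc at no more than 1 count in any library. The 10 endothelial markers summed to 7.46 to 8.57 CPM in CDC and 8.45 to 9.89 CPM in the clone.

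Genes of the apical surface rose, and those of junctions rose in part. Of 25 genes listed for the apical membrane and microvilli, only 15 were tested. Of these 15, 11 rose and 2 fell (median 1.23). Podxl, podocalyxin, a charged sialomucin of apical surfaces, had 9.29, 10.7 and 11.6 CPM in CDC and 201, 262 and 256 CPM in the clone (log2 change 4.51 ± 0.12 SE; edgeR adjusted p 1.5e-13). The proteins that tie podocalyxin to actin rose too, Slc9a3r1 from 169 ± 9.20 to 1410 ± 115 CPM and Ezr, ezrin, from 471 ± 29.4 to 1920 ± 165 CPM, while the related Msn, moesin, fell from 809 ± 55.9 to 368 ± 23.3 CPM. Of 40 junction and polarity genes listed, only 24 had enough counts to be tested. Of these 24, 13 rose, 3 fell and 8 did not pass (median 0.54). F11r, a tight junction adhesion molecule, had 31.2, 31.1 and 35.4 CPM in CDC and 316, 304 and 308 CPM in the clone. Pard6b and Crb2, which set apical polarity, rose by log2 changes of 3.30 (SE 0.10) and 3.06 (SE 0.09). The catenins, which link cadherins to actin, were close to level. Ctnnb1, beta-catenin, changed by −0.05 on the log2 scale (edgeR, adjusted p 0.63) and Ctnnd1 of 0.13 (adjusted p 0.19). Ctnna1 fell by 0.28, a call lost on TPM.

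Target genes of TGF-beta were mostly lower in the clone. Of 20 target genes tested, 17 fell and 2 rose (median −0.98), and they took 1.333%, 1.197% and 1.326% of all counts in the CDC libraries and 0.328%, 0.359% and 0.365% in the clone libraries. Thbs1, thrombospondin 1, had 5566, 4519 and 5539 CPM in CDC and 380, 638 and 457 CPM in the clone (log2 change −3.41 ± 0.16 SE; edgeR adjusted p 8.2e-11). Inhba, the activin A subunit, fell from 47.0 ± 5.39 to 2.78 ± 0.0204 CPM. The exceptions were Tgfbi and Ltbp2, which rose by 0.63 and 1.22 on the log2 scale. The ligands and receptors moved both ways, 9 higher and 9 lower of 22. That is 40.9% each way, against 34.2% higher and 34.6% lower over all genes tested. Lrrc32, which holds latent TGF-beta at the cell surface, fell from 44.0 ± 5.55 to 0.338 ± 0.0633 CPM (log2 −7.00, SE 0.17), Ltbp1 fell by 3.77, and Tgfb3 rose by 1.58.

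Within the contractile genes the change was not uniform. Of 17 smooth muscle contractile genes tested, 12 fell and 3 rose (median −1.16). Acta2, smooth muscle actin, had 2192, 1905 and 1728 CPM in CDC and 287, 416 and 340 CPM in the clone, and Tagln, transgelin, had 274, 263 and 239 CPM in CDC and 28.7, 38.3 and 35.0 CPM in the clone. Every clone library lay below every CDC library for both, where 71.9% of all genes tested also lacked overlap between the kinds. Acta2 fell by 2.48 and Tagln fell by 2.93 on the log2 scale. Mylk, the kinase that switches on myosin, instead rose from 119, 115 and 153 CPM to 770, 879 and 855 CPM (log2 change 2.69 ± 0.11 SE; edgeR adjusted p 1.4e-11). Smtn, smoothelin, rose from 148, 128 and 131 CPM to 536, 734 and 603 CPM and Csrp1 by 0.62 on the log2 scale. Zyx, zyxin of focal adhesions, rose from 1006 ± 89.3 to 2172 ± 175 CPM and Fscn1, fascin, from 1280 ± 114 to 2349 ± 221 CPM.

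Targets of YAP and TEAD, the factors that answer to cell tension and spreading, moved in both directions. Of 22 tested, 10 fell, 7 rose and 5 did not pass (median −0.13). These are 45.5% lower and 31.8% higher, against 34.6% and 34.2% over all genes tested. Ctgf, a secreted matricellular protein, had 1142, 1012 and 961 CPM in CDC and 51.2, 101 and 81.7 CPM in the clone. Ankrd1, a nuclear ankyrin-repeat protein, had 375, 363 and 365 CPM in CDC and 42.4, 65.5 and 53.7 CPM in the clone (log2 change −2.77 ± 0.12 SE; edgeR adjusted p 2.8e-11). Ajuba, a junction protein that restrains the Hippo kinases, went the other way, with 56.5, 52.9 and 50.9 CPM in CDC and 111, 149 and 129 CPM in the clone (log2 1.28, SE 0.10, adjusted p 2.1e-08). The promoters of Ankrd1 and Ajuba are shown because both hold the TEAD motif GGAATG while the genes moved in opposite directions. These are the 250 bases before the start in RefSeq (GRCm38.p6), Ankrd1 at chr19:36119845-36120094 and Ajuba at chr14:54577662-54577911, both on the minus strand, 5′ to 3′, with GGAATG on either strand in capitals.
Ankrd1: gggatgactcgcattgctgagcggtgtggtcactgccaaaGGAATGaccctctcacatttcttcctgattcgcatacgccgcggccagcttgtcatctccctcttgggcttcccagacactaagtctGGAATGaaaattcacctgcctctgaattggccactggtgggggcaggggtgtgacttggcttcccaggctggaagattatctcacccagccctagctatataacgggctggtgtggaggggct
Ajuba: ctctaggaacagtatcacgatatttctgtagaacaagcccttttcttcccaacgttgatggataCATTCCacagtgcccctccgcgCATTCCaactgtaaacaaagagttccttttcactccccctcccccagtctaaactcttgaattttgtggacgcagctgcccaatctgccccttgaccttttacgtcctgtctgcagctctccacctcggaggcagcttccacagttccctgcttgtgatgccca
Each holds 2 copies. GGAATG was present in 7 of 18 promoters of the YAP list (38.9%) and in 10.9% of the 13193 promoters of genes tested that the table holds. The share was like that of the YAP list in the smooth muscle list (7 of 16, 43.8%) and the mesothelial list (4 of 11, 36.4%), and 0 of 15 promoters of TGF-beta targets held it. A match of letters is a description, not a site.

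Most genes of fibrillar and elastic matrix were lower, and some rose. Of 33 genes for fibrillar collagens and their assembly 23 fell and 6 rose (median −0.93), of 21 elastic fibre and microfibril genes 15 fell and 5 rose (median −0.94), and of 21 matricellular genes 13 fell and 2 rose (median −1.38). Col1a1, the main chain of type I collagen, had 5611, 4554 and 5737 CPM in CDC and 1478, 1865 and 1810 CPM in the clone, whereas its partner chain Col1a2 was at 3887 ± 562 and 3304 ± 410 CPM and did not pass (adjusted p 0.0915 in edgeR), though it was called lower without CDC library 2 and without clone library 2. Col8a1, a short-chain collagen, fell from 194, 166 and 233 CPM to 3.28, 4.26 and 4.95 CPM (log2 change −5.57 ± 0.15 SE; edgeR adjusted p 1.6e-13). Col12a1 fell by 3.96 and Col11a1 fell by 4.11 on the log2 scale. The risers of the fibrillar list were Col6a1, from 1116 ± 58.4 to 1692 ± 84.3 CPM, Pcolce, P3h1, Loxl1, Col6a2 and Loxl2, the last 5 by 0.26 to 0.52 on the log2 scale, and the list still took 1.52% of counts in the clone against 2.31% in CDC. Fn1, fibronectin, at 7711 ± 1393 and 6456 ± 796 CPM, did not pass (adjusted p 0.0941 in edgeR), though it was called lower without CDC library 2 and by DESeq2. Among matricellular proteins of the CCN family, Wisp2 fell from 568, 551 and 500 CPM to 9.28, 10.3 and 11.9 CPM, Wisp1 fell by 4.70 and Nov fell by 4.49 on the log2 scale.

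Among genes with at least 50 CPM in the higher kind, the largest fitted rise was in an extracellular matrix gene. Thsd4, a thrombospondin-domain protein that promotes fibrillin microfibrils, had 0.869, 0.587 and 1.17 CPM in CDC and 206, 216 and 223 CPM in the clone (log2 change 7.93 ± 0.14 SE; edgeR adjusted p 5.1e-15). Most microfibril genes went the other way. Mfap5 fell by 5.19 on the log2 scale, Fbln2, fibulin 2, from 3349 ± 331 to 344 ± 18.3 CPM and Fbn1, fibrillin 1, from 586 ± 98.6 to 187 ± 21.5 CPM. Eln, elastin, rose by 1.21 and Ltbp4 by 0.72. Small proteoglycans split. Bgn, biglycan, had 6381, 5600 and 6579 CPM in CDC and 595, 747 and 680 CPM in the clone, the largest loss in CPM of any gene that passed, while the related Dcn, decorin, had 424, 391 and 562 CPM in CDC and 1794, 2053 and 1607 CPM in the clone. Ogn and Fmod rose with Dcn, by 2.28 and 2.22, and Podn and Prelp fell by 3.90 and 3.49.

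Basement membrane genes rose and fell. Of 27 genes tested, 8 rose, 12 fell and 7 did not pass (median −0.17). The shares were 29.6% higher and 44.4% lower, against 34.2% and 34.6% over all genes tested. Lamc3, a laminin gamma chain, had 6, 4 and 7 counts in CDC and 637, 911 and 807 counts in the clone (log2 change 7.05 ± 0.22 SE; edgeR adjusted p 6.6e-13). Fras1, which anchors epithelia to the membrane below, rose by 3.85 and Col4a4 by 3.03, with Col4a3 rising by 1.14. Smoc2 rose by 3.06 while its relative Smoc1 fell by 2.49. Lama2, the laminin chain of muscle and mesenchyme, fell by 4.35, from 111, 62 and 112 counts to 1, 3 and 10. The abundant chain Col4a1 was at 1405 ± 150 and 1248 ± 133 CPM and did not pass. Receptors shifted as well. Itga3, the alpha chain of an epithelial laminin receptor, rose from 39.1 ± 2.15 to 283 ± 35.1 CPM and Itgb4 by 1.68, whereas Itgb5, a vitronectin receptor chain, fell from 247, 234 and 243 CPM to 18.5, 18.8 and 19.1 CPM (log2 −3.68, SE 0.08).

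**Figure D2:**
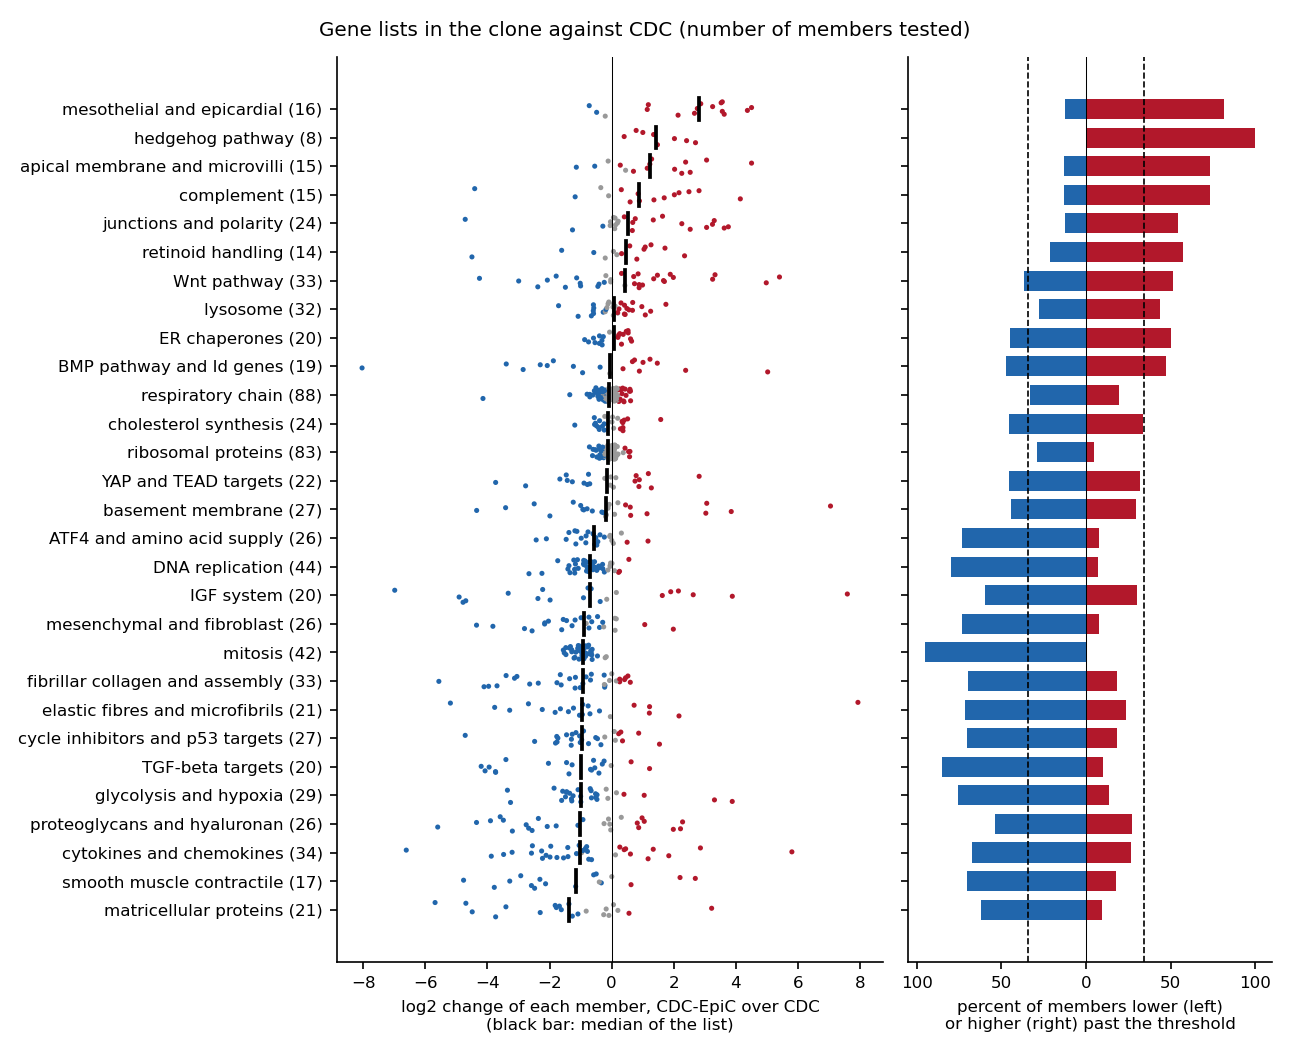
Log2 change of each member tested (points, with the list's median as a black bar) and percent of members past the threshold in each direction, for 29 gene lists ordered by median, with the number tested in brackets. Red is higher in CDC-EpiC, blue lower and grey not past the threshold, and dashed lines mark 34.2% and 34.6%, the shares over all genes tested. Mesothelial genes stand at the top with a median of 2.81 and matricellular genes at the bottom with −1.38.

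Transcripts of the cell division machinery were lower in the clone libraries. Of 42 mitosis genes tested 40 fell and 0 rose (median −0.93), and of 44 replication genes 35 fell and 3 rose (median −0.68). Mki67, which encodes Ki-67, a marker of cycling cells, had 170, 140 and 168 CPM in CDC and 61.8, 44.6 and 56.2 CPM in the clone (log2 change −1.56 ± 0.11 SE; edgeR adjusted p 7.6e-09). Ccne1 and Ccne2, the E cyclins that open S phase, fell further, by 2.66 (SE 0.10) and 2.25 (SE 0.10). The share of counts taken by mitosis genes was 0.304%, 0.305% and 0.296% in CDC and 0.180%, 0.137% and 0.182% in the clone. The clone libraries all lay below the CDC libraries, and clone library 2 was the lowest.

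The promoters of 3 mitosis genes that fell are shown because they carry the CCAAT box and the letters TTTGAA. The letters TTTGAA belong to the cell cycle homology region, through which repressor complexes silence such genes in resting cells. Whether either motif bears on the falls was not tested. Cdk1, the mitotic kinase, had 129, 137 and 116 CPM in CDC and 70.3, 62.0 and 65.0 CPM in the clone. Cdc20, which activates the anaphase-promoting complex, fell by 0.84, and Ube2c, the ubiquitin carrier of that complex, by 0.74 on the log2 scale. The 250 bases before each RefSeq start (GRCm38.p6) lie at chr10:69352913-69353162 on the minus strand for Cdk1, chr4:118437344-118437593 on the minus strand for Cdc20 and chr2:164769679-164769928 on the plus strand for Ube2c. They are written 5′ to 3′ with CCAAT and TTTGAA, on either strand, in capitals, copies that overlap included.
Cdk1: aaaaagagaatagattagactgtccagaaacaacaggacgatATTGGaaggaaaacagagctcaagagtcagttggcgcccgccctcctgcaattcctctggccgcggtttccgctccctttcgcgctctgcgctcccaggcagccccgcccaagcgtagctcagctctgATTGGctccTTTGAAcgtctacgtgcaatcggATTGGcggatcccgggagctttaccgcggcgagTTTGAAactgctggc
Cdc20: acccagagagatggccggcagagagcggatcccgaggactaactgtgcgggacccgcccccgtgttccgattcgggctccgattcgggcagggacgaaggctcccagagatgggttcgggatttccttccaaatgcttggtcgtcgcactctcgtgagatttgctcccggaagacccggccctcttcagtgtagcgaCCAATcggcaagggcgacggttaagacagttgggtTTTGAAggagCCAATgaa
Ube2c: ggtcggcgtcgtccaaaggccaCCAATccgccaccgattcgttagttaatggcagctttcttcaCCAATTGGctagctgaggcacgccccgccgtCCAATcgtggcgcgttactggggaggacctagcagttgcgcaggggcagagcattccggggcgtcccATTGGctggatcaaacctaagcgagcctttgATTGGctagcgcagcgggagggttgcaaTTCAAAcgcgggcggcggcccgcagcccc
CCAAT was present in 29 of 38 promoters of mitosis genes (76.3%) and TTTGAA in 12 (31.6%), against 35.3% and 10.7% of the promoters of all genes tested. Both were present in 11 of the 38 (28.9%) and in 4.06% over all genes tested. Ccnb2, a mitotic cyclin with both motifs, had a log2 change of −0.17 and did not pass.

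The inhibitor Cdkn1a was lower along with the division genes, and any link between them was not tested. Of 27 cycle inhibitors, D cyclins and p53 targets tested, 19 fell and 5 rose (median −0.96). Cdkn1a, p21, which p53 induces to stop the cycle, had 505, 485 and 433 CPM in CDC and 78.7, 90.7 and 85.7 CPM in the clone (log2 change −2.48 ± 0.09 SE; edgeR adjusted p 2.8e-12). Among other p53 targets that fell were Ccng1, from 462 ± 14.4 to 137 ± 19.1 CPM, Phlda3 by 1.45, Bax by 1.30 and Mdm2 by 1.03 on the log2 scale. Sesn1 and Btg2, also p53 targets, rose by 0.87 and 1.54, and Trp53 itself by 0.30. The D cyclins, which growth factors induce, fell together, Ccnd2 from 719, 708 and 787 CPM to 204, 236 and 193 CPM, Ccnd3 by 1.01 and Ccnd1 by 0.74. The inhibitor Cdkn1b, p27, rose by 0.35.

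**Figure D3:**
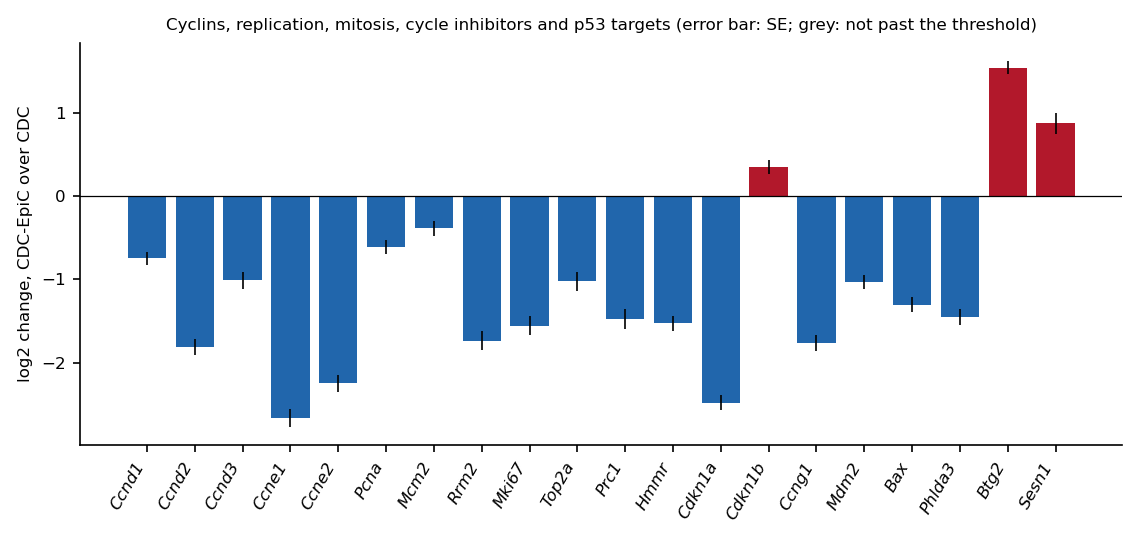
Log2 change in CDC-EpiC over CDC of 20 cyclins, replication, mitosis, inhibitor and p53 target genes, with the standard error of the fit, chosen after their values were seen. Bars in blue fell and bars in red rose past the threshold, and Cdkn1a, at −2.48, is lower along with the cyclins and mitosis genes.

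Genes of glycolysis and of amino acid supply were mostly lower. Of 29 glycolysis and hypoxia genes tested 22 fell and 4 rose (median −0.99), and they took 2.37%, 2.17% and 2.08% of counts in CDC and 1.30%, 1.25% and 1.26% in the clone. Gapdh was at 8036, 7096 and 6594 CPM in CDC and 4715, 4612 and 4515 CPM in the clone. Slc16a3, which exports lactate, had 58.9, 52.4 and 49.4 CPM in CDC and 4.64, 5.07 and 5.96 CPM in the clone (log2 change −3.36 ± 0.11 SE; edgeR adjusted p 8.2e-13). Vegfa and Adm, both induced by low oxygen, fell by 1.85 and 3.26, but Car9, another such gene, rose from 1.01 ± 0.206 to 10.1 ± 1.53 CPM and Ndrg1 rose by 1.05. Of 26 genes of ATF4 and amino acid supply 19 fell and 2 rose (median −0.57), with Atf4 itself at 356 ± 7.25 and 370 ± 35.1 CPM. Genes of the respiratory chain and of ribosomes had medians near 0. Of 88 respiratory chain genes 17 rose, 29 fell and 42 did not pass (median −0.09), with Cox6b2 and Ndufaf2, which fell by 4.14 and 1.35, the 2 that changed by 2-fold. Of 83 ribosomal protein genes 4 rose, 24 fell and 55 did not pass (median −0.11), none by 2-fold.

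The IGF system turned over. Of 20 genes tested 6 rose and 12 fell (median −0.71). Both ligands fell, Igf2 from 338, 353 and 445 CPM to 12.5, 15.7 and 15.6 CPM (log2 change −4.70 ± 0.13 SE; edgeR adjusted p 1.5e-13) and Igf1 from 32.6, 31.9 and 32.2 CPM to 1.27, 0.987 and 1.23 CPM. Pappa, the protease that frees IGF from its binding proteins, fell from 20.8, 16.4 and 20.9 CPM to 0.131, 0.135 and 0.175 CPM. The binding proteins split, with Igfbp6, Igfbp3 and Igfbp4 higher and Igfbp2 and Igfbp7 lower. Igfbp6 had 20, 16 and 18 counts in CDC and 3862, 3458 and 3432 counts in the clone (log2 7.59). Igfbp4 rose from 877 ± 4.70 to 2719 ± 172 CPM, and Igfbp7 fell from 489 ± 9.28 to 48.5 ± 4.27 CPM. On the receiving side Irs1 and Irs2, the adaptors of the insulin and IGF receptors, rose by 1.90 and 2.15, the receptor Igf1r fell by 0.37 and Insr did not pass.

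BMP genes moved both ways, 9 higher and 9 lower of 19 tested, and hedgehog genes rose. For the BMP list that is 47.4% in each direction, against 34.2% higher and 34.6% lower over all genes tested. Bmp2 had 1.01, 1.67 and 1.84 CPM in CDC and 46.9, 49.6 and 51.4 CPM in the clone (log2 change 5.03 ± 0.14 SE; edgeR adjusted p 1.5e-13), Bmp6 rose by 2.38 and Bmp4 by 0.89, while Gdf6, another ligand of the family, fell from 74.6 ± 5.42 to 15.1 ± 2.38 CPM. The BMP antagonists Grem1, Bmper, Chrd and Fst fell, with log2 changes of −3.39, −2.85, −1.23 and −2.07. The direct targets Id1, Id2, Id3 and Smad6 rose, by log2 changes of 1.47, 1.01, 0.67 and 1.24, while Id4 fell by 1.88. The receptor Bmpr1b had 32, 26 and 39 counts in CDC and 0 in each clone library, at least 11.1-fold lower against a floor of 3 counts per library. Of 14 hedgehog genes listed, 8 were tested and all 8 rose (median 1.41). The co-receptors Cdon, Gas1 and Boc rose by 2.70, 2.41 and 1.47, Gli2 by 2.02 and the receptor and target Ptch1 by 1.35. Smo, the transducer, rose from 169 ± 5.44 to 339 ± 17.9 CPM. Gli1, the target most used as a readout, was barely detected, with 2, 8 and 0 counts in the CDC libraries against 1, 0 and 1 in those of the clone.

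Of 33 Wnt genes tested 17 rose and 12 fell (median 0.43). Wnt5a, a ligand of the non-canonical branch, rose from 7.83, 8.26 and 10.1 CPM to 83.3, 90.8 and 88.9 CPM, and the secreted antagonist Sfrp4 from 1.08 ± 0.242 to 46.3 ± 5.83 CPM (log2 change 5.41 ± 0.15 SE; edgeR adjusted p 1.8e-13). The R-spondins, which amplify Wnt signals, crossed over, Rspo1 rising by 3.25 and Rspo3 falling from 41.3, 33.8 and 43.2 CPM to 1.84, 1.93 and 2.41 CPM. Of guidance genes 14 of 36 rose and 17 fell, with Plxna4, a semaphorin receptor, rising from 9.35 ± 1.72 to 266 ± 12.7 CPM, Sema3f by 3.50 and Nrp2 by 2.89, and Slit2 falling by 2.70. Of 12 Notch genes 3 rose, 4 fell and 5 did not pass (median −0.17), where the receptor Notch3 fell from 33.0 ± 1.37 to 7.16 ± 0.825 CPM, the ligand Jag1 fell by 1.95 and the target Hes1 by 1.59, while another ligand, Jag2, rose by 3.33 on the log2 scale.

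Secreted inflammatory signals were lower and complement was higher. Of 34 cytokine and chemokine genes tested 23 fell and 9 rose (median −1.01). Il6 had 57.2, 59.9 and 53.2 CPM in CDC and 0.481, 0.493 and 0.745 CPM in the clone (log2 change −6.62 ± 0.14 SE; edgeR adjusted p 1.6e-14). Csf1, the macrophage growth factor, fell from 2568 ± 145 to 648 ± 84.0 CPM and the chemokine Ccl7 from 129 ± 2.38 to 27.6 ± 6.87 CPM. Il18, a cytokine of epithelia, rose from 1.28, 0.902 and 1.48 CPM to 73.0, 74.9 and 57.9 CPM, and Ptgs1, cyclooxygenase 1, from 89.9 ± 3.52 to 653 ± 13.3 CPM. Of 15 complement genes 11 rose and 2 fell (median 0.89). C2 rose by 4.14 and C3 by 1.69, with C3 at 324, 228 and 391 CPM in CDC and 763, 1207 and 1082 CPM in the clone. Masp1 fell by 4.41. Of 36 interferon-stimulated genes 15 fell, 9 rose and 12 did not pass. Ifit3, whose reads its close paralogs can share, was at 90.7, 93.8 and 164 CPM in CDC, with library 3 well above the other CDC libraries, and at 21.2, 32.7 and 26.1 CPM in the clone. H2-K1, a class I histocompatibility gene whose reads near-identical genes can share, rose by 1.45.

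**Figure D4:**
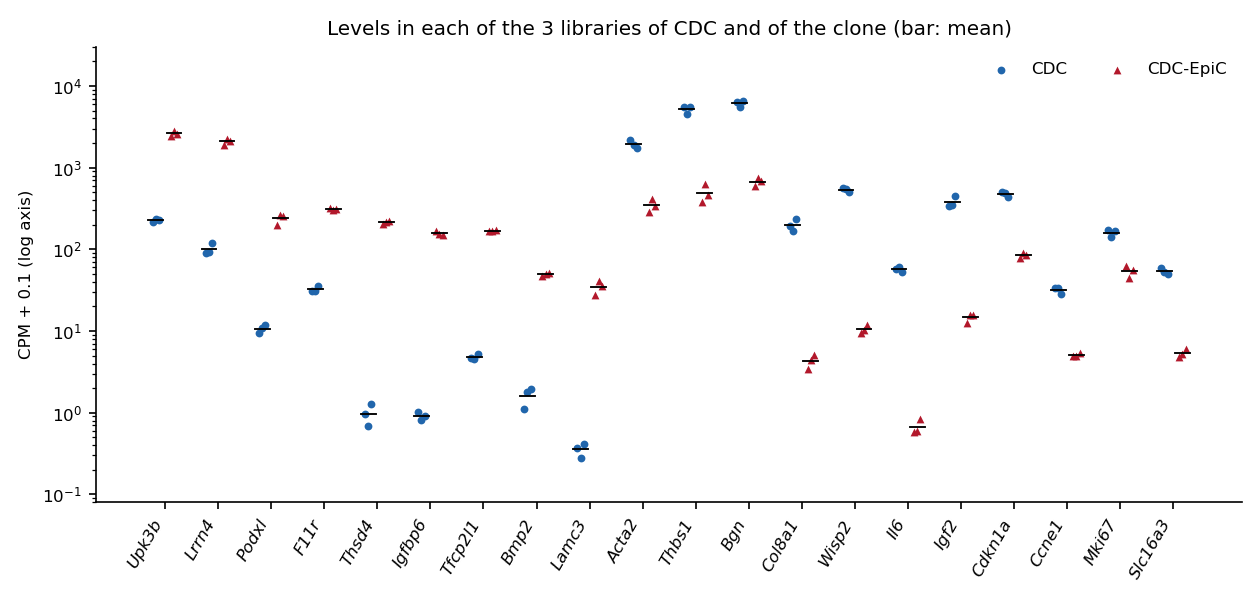
Level of 20 named genes in each of the 3 CDC libraries (blue circles) and the 3 CDC-EpiC libraries (red triangles), in CPM plus 0.1 on a log axis, with a bar at each mean. The genes were chosen with their values known, some by a rule that requires no overlap between the kinds. That none of them overlaps therefore follows from the choice, and 71.9% of all genes tested did not overlap either. Levels in CDC run from Lamc3 at 0.180 to 0.314 CPM to Bgn at 5600 to 6579 CPM.

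Of 88 transcription factors tested on the list 31 rose and 48 fell (median −0.40). Tfcp2l1, a grainyhead-related factor of kidney and other epithelia, had 4.53, 4.47 and 5.16 CPM in CDC and 166, 168 and 175 CPM in the clone (log2 change 5.17 ± 0.10 SE; edgeR adjusted p 6.1e-15). Meis2, Bnc1 and Tbx20 rose by 2.34, 2.14 and 1.73. Those that fell include Foxc2, Eya4, Tbx5, Prrx1 and Snai1, with log2 changes of −3.70, −2.48, −2.37, −2.15 and −2.04, where Prrx1 and Snai1 are factors of mesenchyme. Genes toward the 5′ end of the HoxA cluster, and Hoxc13, rose. Hoxc13 rose from 8, 4 and 3 counts to 353, 411 and 410 counts, Hoxa10 from 7, 3 and 8 counts to 228, 173 and 187 counts, and Hoxa13, with 0, 0 and 2 counts in CDC and 86, 83 and 87 in the clone, was at least 27.7-fold higher against the floor. Of 16 Hox genes tested 8 rose and 6 fell, and Hoxb2, Hoxb3 and Hoxb4 fell by 0.48, 0.42 and 0.58.

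Several of the largest changes lay outside these groups. Trf, transferrin, the iron carrier of plasma, rose from 253, 256 and 273 CPM to 2197, 2377 and 2419 CPM, the largest gain in CPM after that of Upk3b. Trf is also on the liver list, of which 5 genes were tested, and there Ttr rose by 1.24, Ahsg and Apoa1 fell by 1.64 and 4.01, and Apoa2 did not pass. Alb, albumin, had 660, 599 and 1 counts in CDC and 0 in each clone library. Rab3b, a vesicle GTPase, rose from 9.70 ± 0.869 to 412 ± 9.10 CPM, Vat1l from 37.9 ± 3.92 to 949 ± 71.4 CPM and Prg4, lubricin, from 11.6 ± 2.22 to 331 ± 47.0 CPM. Lgals2 rose by 6.07, Adcyap1r1, the PACAP receptor, by 5.45 and Megf6 by 5.18. Under the same minimum of 50 CPM the largest fall was in Cpxm2, a carboxypeptidase-like protein, from 136, 135 and 156 CPM to 0.919, 1.03 and 1.05 CPM (log2 change −7.14 ± 0.13 SE; edgeR adjusted p 5.1e-15). Asb5 fell by 6.89, Lmcd1 by 6.39 and Slc1a6, a glutamate transporter, by 5.64. Unc45b, a myosin chaperone, had 3, 2 and 3 counts in CDC and 10.2, 11.2 and 11.3 CPM in the clone, at least 80.3-fold higher. Gpx1, a glutathione peroxidase, fell from 385 ± 35.8 to 97.8 ± 3.07 CPM, and the glutathione transferases Gsta4 rose by 5.40 and Gstm1 by 1.91.

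The changes were spread unevenly over the chromosomes. The median log2 change of the genes tested was 0.25 on chromosome 2, 0.18 on chromosome 12 and 0.13 on chromosome 1, and −0.26 on chromosome 18, −0.23 on chromosome 7 and −0.23 on chromosome 3. On chromosome 2, 50.2% of 1035 genes were higher and 23.4% lower, and on chromosome 7, 19.9% of 974 genes were higher and 48.5% lower. Chromosome 18 had 19.1% of 356 genes higher and 50.6% lower, and chromosome 3 had 24.0% of 621 higher and 49.6% lower. The other autosomes and X had medians of −0.11 to 0.07. The chromosomes named here were chosen by these values, which are a description with no test. Named genes moved both ways on these chromosomes. On chromosome 2, Lrrn4, Lamc3 and Bmp2 rose, while Wisp2 and Thbs1 fell by 5.69 and 3.41 on the log2 scale. On chromosome 7, Igf2, Mki67 and Ccne1 fell, while Htra1 and Ltbp4 rose by 1.43 and 0.72. Upk3b, Podxl and Thsd4 are on other chromosomes.

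**Figure D5:**
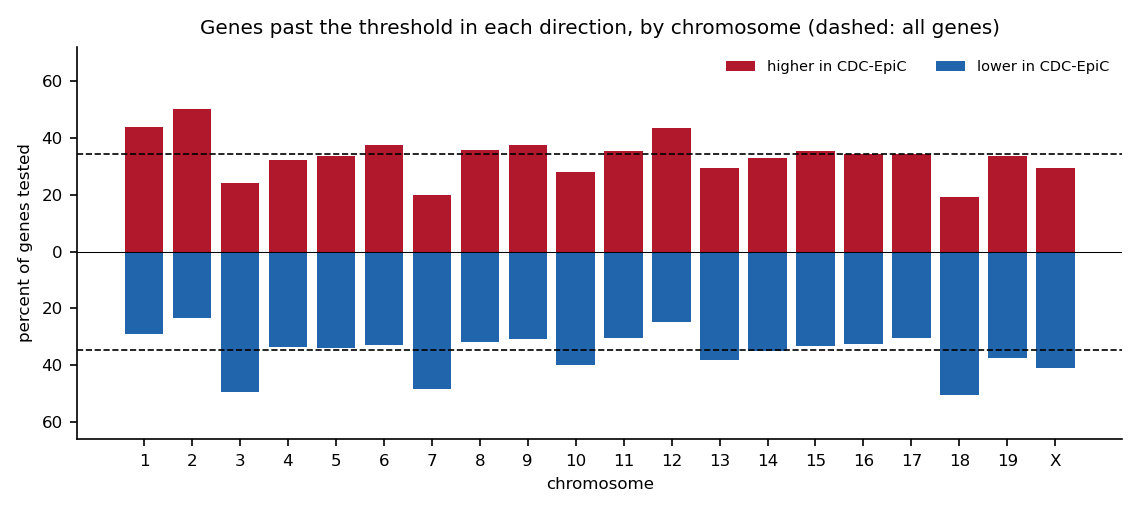
Percent of genes tested on each chromosome that were higher (red, upward) or lower (blue, downward) in CDC-EpiC past the threshold, for chromosomes with at least 100 genes tested, with dashed lines at the shares over all genes, 34.2% and 34.6%. Chromosomes 1, 2 and 12 lean upward, to 50.2% higher on chromosome 2, and chromosomes 3, 7 and 18 downward, to 50.6% lower on chromosome 18.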

How the data were processed

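mRNA of 3 CDC and 3 CDC-EpiC samples was selected on oligo(dT) beads, primed with random hexamers and sequenced on a BGISEQ-500. The submitters' processing notes name HISAT2 2.0.4, Bowtie2 2.2.5, RSEM 1.2.12, DESeq2 1.4.5 and the build mm10. The annotation and any use of strand are not given in the sources used here, so counts of near-identical, overlapping or antisense genes are uncertain. The authors deposited expected counts (estimated counts) per gene and library, and also deposited TPM and FPKM, which were used for alternatives. The authors' columns of means were not used.

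Expected counts were rounded and fitted in edgeR 4.0.16 under R 4.3.3 (filterByExpr with minimum count 10 and minimum total count 15, TMM, glmQLFit, glmQLFTest) on the 6 libraries alone, with Benjamini-Hochberg adjustment over all genes tested and a threshold of 0.05. The fits were tested on counts drawn with known changes in a small part of the genes, in balanced directions. Such a draw does not test the scaling where most genes change, as here. At 22008833 to 22756045 counts per library, 3 counts (the floor) are 0.136 CPM in CDC and 0.132 CPM in the clone on average. The floors cover counting error only. Each standard error (SE) of a log2 change is its absolute value divided by the square root of the test's F statistic. It therefore includes the spread between libraries. A kind with at most 3 counts in every library was treated as at the floor.

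The comparison, the 57 gene lists and the members named were chosen with earlier results of these data known. Named genes are the 15 largest rises and falls without overlap whose higher kind averages at least 50 CPM, the 10 largest gains and losses in CPM, and in each list the 3 largest rises and falls with at least 10 CPM and the most abundant members (6 rises and falls for transcription factors). Not all are printed, and any other gene named was chosen after its values were seen. Positions and promoters are from RefSeq on GRCm38.p6, the assembly of mm10, matched by gene ID for 18117 of 18245 genes. Alternatives were DESeq2 1.42.0, limma 3.58.1 on log2 TPM and FPKM, other scalings, filters and samples, a replicate block, leaving out each library and, chosen after seeing the data, CDC library 3 alone. Python 3.11.15, pandas 2.3.3, NumPy 2.4.6 and matplotlib 3.10.9 made the lists and figures.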

Additional observations from a re-analysis of the deposited data

How the results depend on the processing

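The count of changed genes depended on the size of change asked for. Tested against a 1.5-fold change, 1615 genes were higher and 2049 lower, and of list members 207 were higher and 378 lower. Every other alternative, DESeq2 included, kept these 4 counts within 1.5 times. Leaving out 1 library gave 3955 to 4509 genes higher and 4230 to 4537 lower, and 334 to 373 list members higher and 601 to 649 lower. The library numbers are not known to pair the samples. Correlations of deviations were 0.0138, −0.0904 and 0.0415 for libraries of the same number and −0.0988 to 0.1072 for different numbers, which cannot settle it. A replicate block called 8831 genes, 4394 higher and 4437 lower. Chromosome medians moved with scaling by library size alone, to 0.19 on chromosome 1, 0.31 on 2, 0.24 on 12, −0.17 on 3, −0.17 on 7 and −0.21 on 18, and in genes of at least 50 CPM to 0.31 on 2, −0.26 on 3 and −0.28 on 7. Leaving out 1 library, they were 0.23 to 0.26 on chromosome 2 and −0.26 to −0.21 on chromosome 3. As shares of TPM the difference of clone and CDC was 0.526 percentage points for mesothelial genes, −0.422 for TGF-beta targets, −0.212 for fibrillar collagens and −0.0932 for mitosis genes, each in the same direction as shares of counts. With CDC library 3 alone, a kind then without spread of its own, Krt19 and Cdkn1b were no longer called and Col1a2 and Fn1 were called lower. The causes were not tested. The share of calls that were higher was 49.7% and ran from 44.1% to 54.9%. Low counts limit genes near the floor of 3 counts per library, and 3 libraries of 1 clone limit all of these comparisons.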

Other observations

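Among the lists not described above, lysosomal genes had 14 higher and 9 lower of 32 tested (median log2 change 0.09), with Npc2, a cholesterol carrier of lysosomes, rising from 384, 364 and 436 CPM to 1196, 1501 and 1276 CPM. Of 14 retinoid genes 8 rose and 3 fell (median 0.45). Of 20 chaperones of the endoplasmic reticulum 10 rose and 9 fell, none by 2-fold, and of 14 heat shock genes 1 rose and 10 fell (median −0.33). Of 14 imprinted genes 1 rose and 8 fell (median −0.69). Of 18 circadian genes 9 rose and 5 fell (median 0.10). Cholesterol synthesis had 8 higher and 11 lower of 24 (median −0.11), and immediate early genes had 9 higher and 9 lower of 24.

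Genes at lower levels had fitted changes beyond those of Thsd4 and Cpxm2, where one kind had no counts. They were picked after their values were seen and are given as bounds against the floor of 3 counts per library. Nr0b2, a nuclear receptor without a DNA-binding domain, had no counts in CDC and 143, 117 and 123 counts in the clone, at least 41.5-fold higher. Heph, hephaestin, a ferroxidase, had 96, 88 and 147 counts in CDC and none in the clone, at least 37.7-fold lower. Bche, butyrylcholinesterase, had 65, 65 and 73 counts in CDC and none in the clone, at least 23.1-fold lower.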
